A study of Homo sapiens with 6 samples.

Results

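The genes of the RNA polymerase I (Pol I) machinery and of the abundant nucleolar proteins were examined for peaks of Pol I and of RNA polymerase II (Pol II) in LNCaP cells. The members were the peaks listed in windows around 8 genes, each window being the gene's span on hg19 in whole kb with 5 kb added on both sides. POLR1A, POLR1B, UBTF, RRN3, NCL, NPM1, FBL and NOP56 together made windows of 307 kb. These windows held 37 of the 84817 peaks in 4 lists. The BMH-21 Pol I list gave 0 of its 1932 peaks, the DMSO Pol I list 15 of 42547, the BMH-21 Pol II list 3 of 11540 and the DMSO Pol II list 19 of 28798.

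LNCaP is an established androgen-responsive human prostate cancer line. Its cells were exposed to 1 µM BMH-21 for 6 h or to the solvent DMSO, and chromatin was fixed, sheared and immunoprecipitated before sequencing. BMH-21, an intercalator of DNA, is used as an inhibitor of Pol I. The Pol I libraries used the C-1 antibody, which is sold against the largest Pol I subunit, the product of POLR1A, and the Pol II libraries used an antibody to the Pol II C-terminal repeat phosphorylated at serine 5. Each antibody and treatment had 1 library, so differences between treatments come without a replicate error and were not tested, and 2 input libraries were not analysed here. Intervals are exact Clopper-Pearson 95% intervals and cover counting error over peaks only, and read depth is unknown.

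Pol I transcribes the ribosomal RNA precursor in the nucleolus, while the genes for its own subunits, its initiation factors and the nucleolar proteins are protein-coding genes transcribed by Pol II. The upstream binding factor encoded by UBTF shapes ribosomal DNA for transcription, and the RRN3 product (TIF-IA) links Pol I to its promoter. Nucleolin, nucleophosmin, fibrillarin and NOP56 then take part in processing, modifying and assembling the transcripts. Pol II phosphorylated at serine 5 is typical of the start of a gene, where the polymerase begins and pauses.

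The lists do not hold every peak that was numbered. Each peak carries a running number, which rose along every chromosome of every list, and numbers are missing between listed peaks. Of all numbers up to the highest, 87.7% were skipped in the BMH-21 Pol I list, 23.3% in the DMSO Pol I list, 77.0% in the BMH-21 Pol II list and 48.1% in the DMSO Pol II list. Over the genome, 0 of the 1932 BMH-21 Pol I peaks shared a base with a DMSO Pol I peak, and 0 of the 11540 BMH-21 Pol II peaks with a DMSO Pol II peak. Why numbers were skipped is not stated, and peaks found under both treatments may be among those left out. The counts, shares and distances below then describe peaks listed for a single treatment, not all peaks of a library, and the absence of a listed peak does not show that the polymerase was absent. The number missing between neighbouring listed peaks is given below where it bears on a gene.

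Promoter sequences are shown for the 4 genes whose starts carried the higher-scored Pol I peaks of the DMSO list and for FBL, whose start carried none. They are the 250 bases before the start in the first entry of each gene, credited to RefSeq on GRCh38.p14. That start need not be the edge of the hg19 span from which peaks were placed. The positions of the sequences are not comparable with the hg19 positions of the peaks. Capitals mark matches on either strand to the GC box GGGCGG, the CCAAT box CCAAT, the ETS-type motif CCGGAAG or the TATA-type motif TATATA.
POLR1B, chr2:112541786-112542035, plus strand: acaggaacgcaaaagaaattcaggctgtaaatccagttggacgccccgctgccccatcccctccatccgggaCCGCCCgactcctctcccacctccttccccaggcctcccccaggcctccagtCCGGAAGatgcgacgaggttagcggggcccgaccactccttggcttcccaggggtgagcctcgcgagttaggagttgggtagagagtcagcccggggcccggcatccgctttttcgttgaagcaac
NCL, chr2:231464485-231464734, minus strand: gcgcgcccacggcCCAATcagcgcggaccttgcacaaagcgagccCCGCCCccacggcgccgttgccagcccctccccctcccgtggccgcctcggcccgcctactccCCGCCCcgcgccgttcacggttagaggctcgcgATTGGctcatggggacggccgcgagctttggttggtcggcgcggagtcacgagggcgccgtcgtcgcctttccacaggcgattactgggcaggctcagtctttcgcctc
NPM1, chr5:171387599-171387848, plus strand: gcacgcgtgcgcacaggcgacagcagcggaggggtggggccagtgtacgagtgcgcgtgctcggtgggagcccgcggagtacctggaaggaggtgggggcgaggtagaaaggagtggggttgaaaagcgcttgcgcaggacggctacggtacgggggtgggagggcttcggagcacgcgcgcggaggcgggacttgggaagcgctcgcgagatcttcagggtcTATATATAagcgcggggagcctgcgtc
NOP56, chr20:2652382-2652631, plus strand: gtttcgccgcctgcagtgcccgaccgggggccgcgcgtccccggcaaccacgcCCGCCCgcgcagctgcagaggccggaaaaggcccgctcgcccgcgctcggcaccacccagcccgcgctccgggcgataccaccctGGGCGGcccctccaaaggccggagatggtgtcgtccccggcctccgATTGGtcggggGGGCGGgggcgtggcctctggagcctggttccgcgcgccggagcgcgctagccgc
FBL, chr19:39846380-39846629, minus strand: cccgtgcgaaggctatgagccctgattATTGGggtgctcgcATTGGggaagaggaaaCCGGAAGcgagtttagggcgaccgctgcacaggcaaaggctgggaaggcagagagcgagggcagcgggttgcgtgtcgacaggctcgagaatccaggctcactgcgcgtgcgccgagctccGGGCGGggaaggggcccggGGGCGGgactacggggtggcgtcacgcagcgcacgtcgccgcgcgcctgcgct

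All 8 genes matched the RefSeq promoter table, and where a gene had several entries the first was taken. Of the sequences printed, the stretch before NOP56 was the richest in G and C, at 78.0%, followed by NCL at 72.0%, FBL at 68.8%, NPM1 at 67.6% and POLR1B at 63.6%, against a median of 58.0% over 35116 promoters. A GC box was in the stretches of POLR1B, NCL, FBL and NOP56 and in 42.6% of all promoters. A CCAAT box was in those of NCL, FBL and NOP56 and in 32.0% of all, and the ETS-type motif was in those of POLR1B and FBL and in 8.52% of all. The NPM1 stretch held TATATA as 2 overlapping matches near its end, a motif found in 3.73% of all promoters. The second NPM1 entry, not printed, ends farther upstream, at 171387115. It held 0 TATATA matches and 1 CCAAT box, with 46.4% G and C. The E-box CACGTG, present in 6.34% of all, was in none of the 5 printed stretches. The FBL stretch, whose gene had no Pol I peak at its start, held motifs that were also in stretches of genes with one. POLR1A, the other gene without a Pol I peak at its start, differed from FBL, with 43.2% G and C, 0 GC boxes, 0 CCAAT boxes, 0 ETS-type motifs and 1 TATATA in its stretch. The first entry of RRN3, whose start carried a Pol I peak, also had 0 GC boxes, 0 CCAAT boxes and 0 ETS-type motifs. It held 58.8% G and C, and the second RRN3 entry held 1 CCAAT box and 1 ETS-type motif. The first entry of UBTF, also with a Pol I peak at its start, had 7 GC boxes and 70.8% G and C. Whether motifs go with Pol I peaks was not tested.

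In the DMSO libraries, and with a cutoff of 1000 bp, listed Pol I peaks were most often at the starts of these genes. Listed Pol II peaks lay mostly elsewhere. The gap between listed DMSO Pol II peaks that holds the start skipped 1 or more numbers at each gene, up to 8 at NPM1. Unlisted DMSO Pol II peaks could thus lie at any of these starts. A peak was placed at the start of a gene when it came within 1000 bp of the start of the span, a distance chosen after the positions were seen. Of the 15 DMSO Pol I peaks, 8 were at the starts of 6 genes, which were POLR1B, UBTF, RRN3, NCL, NPM1 and NOP56. A further 3 lay inside genes, 1 at a gene end and 3 beyond an end. Of the 19 DMSO Pol II peaks, 1 was at a start (NCL), 3 lay upstream, 7 inside genes, 3 at gene ends and 5 beyond an end. The 3 BMH-21 Pol II peaks were inside RRN3, inside FBL and beyond the end of POLR1B. Ends are those of the spans, and POLR1A and POLR1B are longer than their spans in the GRCh38 annotation. The spans are in whole kb, so distances carry up to 1 kb of rounding, and within 500 bp the counts of genes with a peak at the start were 3 for DMSO Pol I and 0 for DMSO Pol II. No list of hg19 gene starts was used, so the share of all genes with such a peak was not computed.

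**Figure D1:**
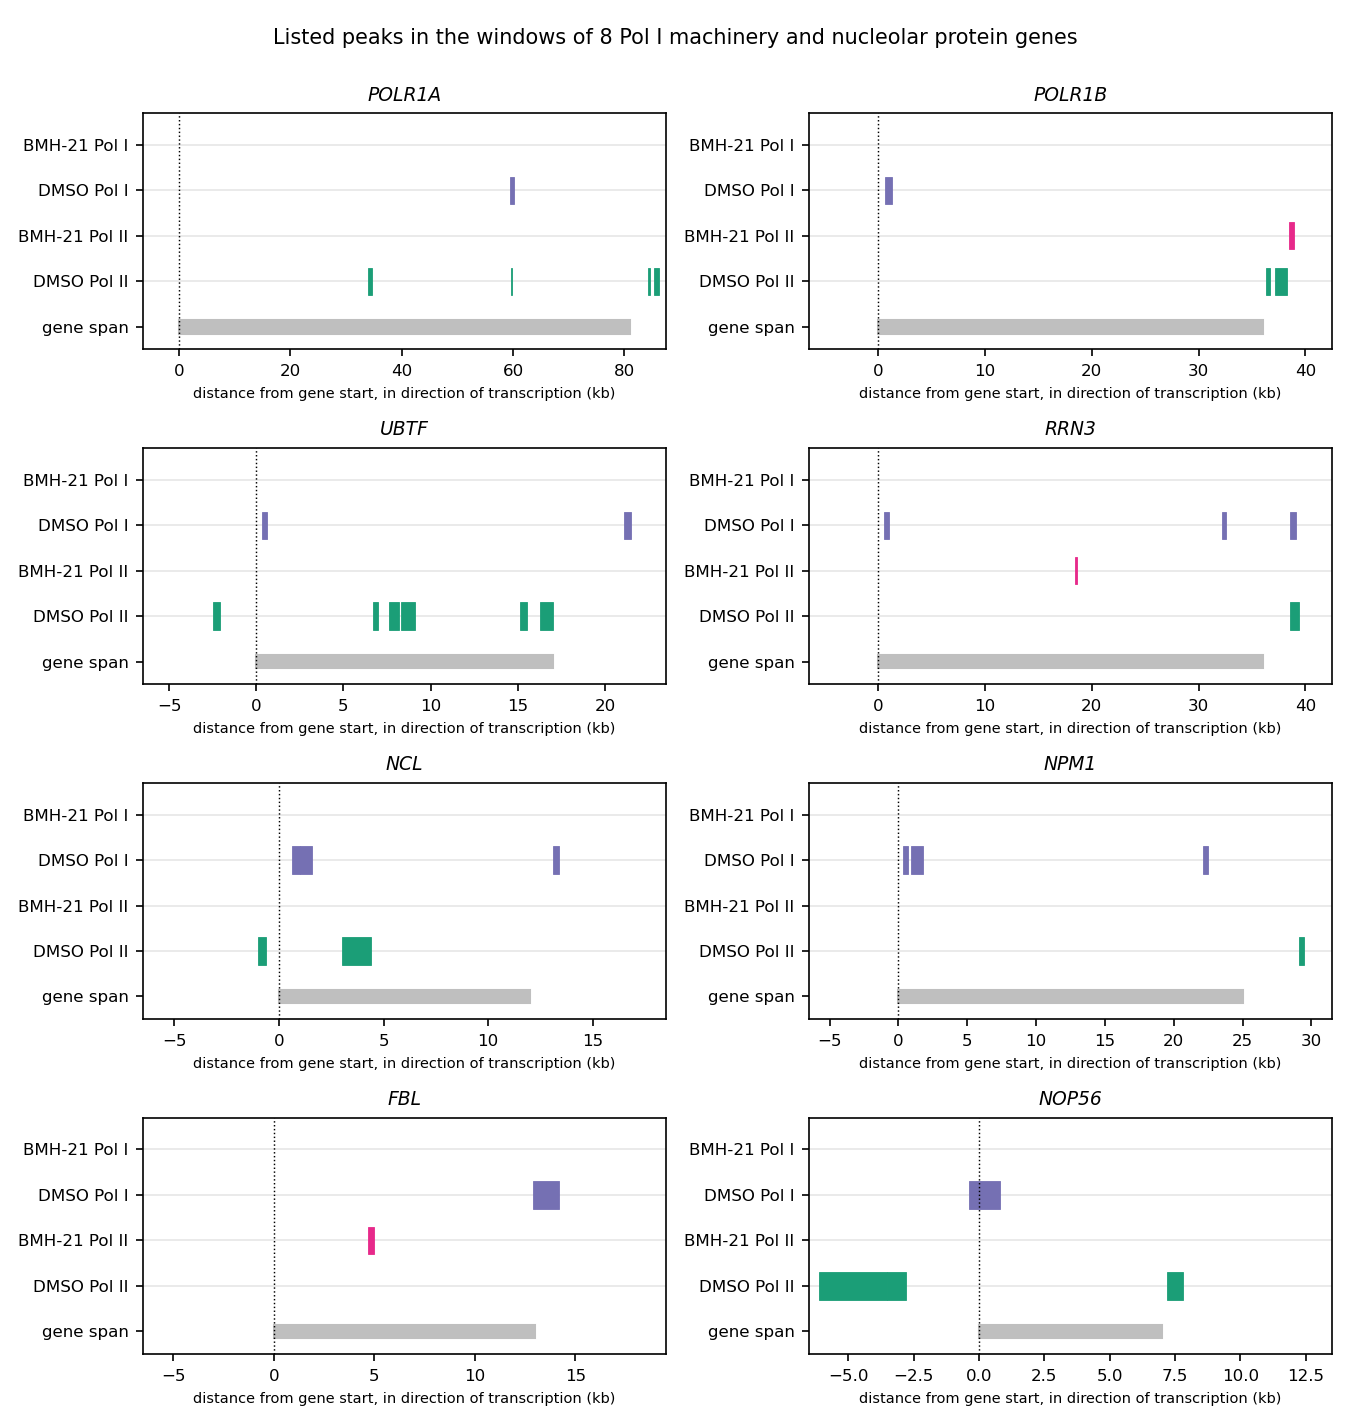
Positions of the 37 listed peaks in the 8 gene windows, as distance in kb from the start of the gene span in the direction of transcription (dotted line), with the gene span in grey and 1 row per list. DMSO Pol I peaks stand within 1000 bp of the start of 6 genes. The 19 listed DMSO Pol II peaks stand mostly inside or beyond the genes, and the BMH-21 Pol I rows are empty. Peaks whose numbers were skipped are not drawn.

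In 3 of the 4 lists, peaks were denser in the windows than over the genome. BMH-21 Pol I had 0 peaks per Mb in the windows against 0.642 per Mb between the outermost peaks of the chromosomes. At that density, windows of 307 kb are too short for a count of 0 to be told apart from the genome. On the same scale, BMH-21 Pol II had 9.77 peaks per Mb in the windows against 3.84, DMSO Pol I had 48.9 against 14.1, and DMSO Pol II had 61.9 against 9.57. The whole-genome figures include gene-free stretches, so the windows were not compared with other genes. BMH-21 Pol I peaks covered 0% of the windows and 0.0231% of the genome between the outermost peaks, and DMSO Pol I peaks 2.84% of the windows and 0.718% of the genome. BMH-21 Pol II peaks covered 0.297% of the windows and 0.165% of the genome, and DMSO Pol II peaks 4.03% and 0.559%.

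In the share scored 100 or more, the peaks in the windows could not be told apart from their lists, and a few scored above the 95th percentile. The score is a value that the authors gave each peak. Its scale, which starts at 50, is not stated, and it is compared within a list only. The median score was 134.79 for the 15 DMSO Pol I peaks against 98.3 over that list, and 98.73 for the 19 DMSO Pol II peaks against 81.02. A score of 100 or more was held by 8 of 15 DMSO Pol I peaks (53.3%, interval 26.6 to 78.7, against 48.9% of the list), 1 of the 3 peaks of BMH-21 Pol II (33.3%, interval 0.84 to 90.6, against 13.5% of that list) and 9 of 19 DMSO Pol II peaks (47.4%, interval 24.4 to 71.1, against 35.3%). Each interval holds the share of the whole list, but the intervals are wide and do not show that the shares are equal. The 8 DMSO Pol I peaks at gene starts had scores from 62.88 to 365.45 with a median of 140.04, and the 7 elsewhere from 55.25 to 739.15 with a median of 60.41. Their widths overlapped widely, with 290 to 1282 bp at starts and 277 to 1277 bp elsewhere.

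**Figure D2:**
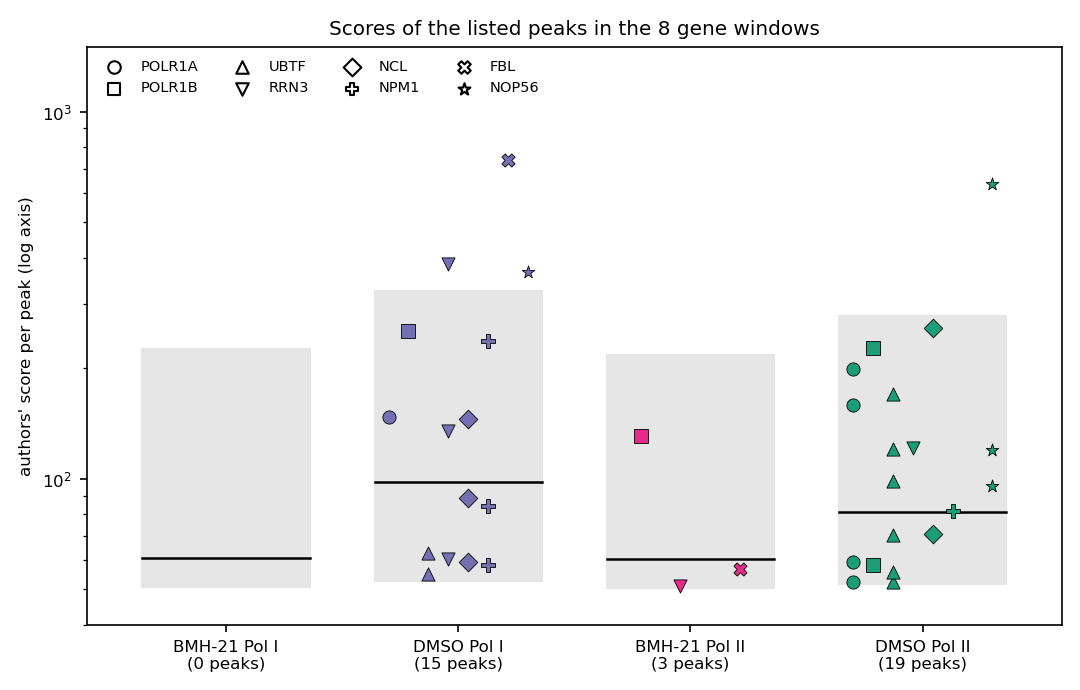
Authors' score of each listed peak in the windows (log axis), by list and gene, with the median of the whole list as a line and its 5th to 95th percentile as a grey box. The FBL peak (739.15), the leading RRN3 peak (385.92) and the NOP56 peak (365.45) of DMSO Pol I and the leading NOP56 peak of DMSO Pol II (636.93) stand above the boxes, and the BMH-21 Pol I column is empty.

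POLR1A encodes the largest catalytic subunit of Pol I and is transcribed from the minus strand. In its window lay 0 BMH-21 Pol I peaks against 1 DMSO Pol I peak, and 0 BMH-21 Pol II peaks against 4 DMSO Pol II peaks. The DMSO Pol I peak lay far inside the gene, 59.5 to 60.1 kb from the start. It ran from 86273937 to 86274470 of chromosome 2 and scored 147.68. A DMSO Pol II peak of 352 bp lay wholly within it, at 86274087 to 86274438, with a score of 52.46 that was close to the lowest listed. This was the only position inside any of the 8 gene spans where listed peaks of the antibodies overlapped. The highest-scored DMSO Pol II peak of the window was also inside the gene, at 86299294 to 86299971 with a score of 199.63.

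Beyond the end of the POLR1A span lay the other DMSO Pol II peaks, at 86249356 to 86249699 and 86247776 to 86248623, with scores of 59.48 and 159.26. GRCh38 annotation gives POLR1A a length of 85.7 kb, longer than the 81 kb span used here, so whether these peaks lie past the end depends on the annotation. At the start of POLR1A, which faces the start of its neighbour PTCD3, no list had a peak. The gap between listed DMSO Pol I peaks that holds this start was 144 kb long and skipped 2 numbers, and that between DMSO Pol II peaks was 66.5 kb long and skipped 1. A numbered but unlisted peak could thus lie at the start for either antibody.

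POLR1B encodes the second-largest subunit, which completes the catalytic centre, and lies on the plus strand. Around it, 0 BMH-21 Pol I peaks stood against 1 DMSO Pol I peak, and 1 BMH-21 Pol II peak against 2 DMSO Pol II peaks. The DMSO Pol I peak was at the start, from 113299629 to 113300294 of chromosome 2, and its score of 253.04 exceeded 90.3% of the list. Pol II was listed at the other end of the gene only. DMSO Pol II peaks followed the end of the span at 113335317 to 113335731 (score 58.12) and 113336168 to 113337306 (score 227.57), and the BMH-21 Pol II peak began 180 bp farther on, at 113337487 to 113337896, with a score of 131.13. GRCh38 annotation gives POLR1B a length of 37.8 kb, longer than the 36 kb span used here. Whether the DMSO Pol II peaks lie inside, at or past the end thus depends on the annotation. CHCHD5 is the next protein-coding gene in this direction.

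The peak beyond POLR1B was the only BMH-21 Pol II peak of the windows within 1000 bp of a DMSO Pol II peak, and the only one with a score of 100 or more. Over the whole list, 19.2% of BMH-21 Pol II peaks had such a neighbour. The gap that follows the DMSO Pol II peaks there was 8.74 kb long and skipped 3 numbers. At the start of POLR1B the gap between listed DMSO Pol II peaks was 95.5 kb long and skipped 1 number. So 1 numbered but unlisted DMSO Pol II peak lay somewhere in that gap, and whether it was at the start is unknown.

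UBTF, on the minus strand, had the most DMSO Pol II peaks of the set and, of the 8 genes, the lowest top score among DMSO Pol I peaks. For Pol I the window held 0 BMH-21 peaks against 2 DMSO peaks, and for Pol II 0 BMH-21 peaks against 6 DMSO peaks. The DMSO Pol I peak at the start was on chromosome 17 at 42298385 to 42298674, scored at 62.88, and the other lay beyond the end toward ATXN7L3, at 42277529 to 42277887, with a score of 55.25. Only 19.2% and 8.67% of the list scored lower than these peaks. UBTF was one of 3 genes, with NCL and NPM1, around which the DMSO Pol I numbering skipped 0 numbers.

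Pol II in UBTF was listed in the middle and toward the end of the gene, with no listed peak in the first 6.7 kb. Of the 6 DMSO Pol II peaks, 4 lay inside it, between 42283511 and 42292341, with scores of 70.49, 170.64, 98.73 and 52.25. The others were at the end of the gene, at 42281956 to 42282741 (score 120.25), and upstream, at 42301140 to 42301473 (score 55.76). Together they covered 12.0% of the window. The gap that holds the start was 8.80 kb long and skipped 1 number, so that a numbered but unlisted DMSO Pol II peak lay between 42292342 and 42301139, that is from inside the gene to upstream of it. Gaps of 0.769 kb and 5.98 kb inside the gene, and a gap of 5.57 kb beyond its end, also skipped 1 number each.

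RRN3, also on the minus strand, had 0 BMH-21 Pol I peaks in its window against 3 DMSO Pol I peaks, and 1 BMH-21 Pol II peak against 1 DMSO Pol II peak. At the start, a DMSO Pol I peak with a score of 134.79 ran from 15187987 to 15188460 of chromosome 16, and a weak one (score 60.41) lay inside the gene at 15156379 to 15156764. The highest-scored DMSO Pol I peak of the window, at 385.92, lay beyond the end of RRN3, at 15149879 to 15150350. The DMSO Pol II peak, at 15149586 to 15150359 with a score of 121.49, covered all of its 472 bp. NTAN1, on the same strand, is the next gene there, so that its start faces the end of RRN3, and PDXDC1 on the other strand spans RRN3 in the GRCh38 annotation. Between the weak Pol I peak and the highest-scored one, a gap of 6.03 kb that holds the end of the RRN3 span skipped 1 number. A numbered but unlisted DMSO Pol I peak thus lay between 15150351 and 15156378.

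The BMH-21 Pol II peak in RRN3 lay inside the gene at 15170358 to 15170599 and had a score of 51.02, below which only 8.38% of its list scored. It was 19998 bp from the nearest DMSO Pol II peak. In the stretch of 140 kb between the listed BMH-21 Pol II peaks that flank the window, 18 numbers were skipped. The human gene table has 4 pseudogenes of RRN3, 50 of NPM1, 2 of NCL, 1 of FBL and 3 of NOP56, and how reads that match several copies were treated is not given in the sources used here, so peaks in these genes are uncertain.

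NCL encodes nucleolin, lies on the minus strand and hosts 3 snoRNAs, SNORA75, SNORD20 and SNORD82. The NCL window held 0 BMH-21 Pol I peaks against 3 DMSO Pol I peaks, and 0 BMH-21 Pol II peaks against 2 DMSO Pol II peaks. Both antibodies had DMSO peaks around the start, but not on the same bases. The DMSO Pol I peaks at the start were on chromosome 2 at 232328390 to 232329016 (score 145.29) and 232329020 to 232329421 (score 88.43), only 3 bp apart. The DMSO Pol II peaks lay on either side of them. The peak at 232330617 to 232330962 (score 70.79), counted above as at the start, was on the upstream side. The other was inside the gene at 232325645 to 232326972 (score 257.41, above 94.0% of the list). The distances from the Pol I peaks were 1195 bp upstream and 1417 bp downstream.

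The gap between these DMSO Pol II peaks was 3.64 kb long, held the Pol I peaks and skipped 1 number. A numbered but unlisted DMSO Pol II peak therefore lay over or beside the Pol I peaks at the NCL start. The third DMSO Pol I peak was beyond the end of the gene, at 232316650 to 232316926, with a score of 59.45. In the BMH-21 lists, the flanking peaks were 801 kb apart with 2 numbers skipped for Pol I, and 861 kb apart with 18 skipped for Pol II. The 2 BMH-21 Pol I peaks so numbered lay somewhere in that stretch and are not listed. Over the genome, the numbering ran to 15755 in the BMH-21 Pol I list and to 55470 in the DMSO Pol I list.

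NPM1 encodes nucleophosmin, a chaperone of ribosome assembly, on the plus strand. The NPM1 window held 0 BMH-21 Pol I peaks against 3 DMSO Pol I peaks, and 0 BMH-21 Pol II peaks against 1 DMSO Pol II peak. A pair of DMSO Pol I peaks stood at the start, on chromosome 5 at 170814278 to 170814714 (score 84.54) and 170814872 to 170815782 (score 237.89), 157 bp apart. A weak one was inside the gene at 170836132 to 170836460, with a score of 58.16. The DMSO Pol II peak was beyond the end, at 170843110 to 170843488, with a score of 81.72, and was 27327 bp from the stronger Pol I peak. No Pol II peak was listed over the gene, but the gap of 525 kb that holds it skipped 8 numbers in the DMSO list, and 30 numbers were skipped over 786 kb in the BMH-21 list.

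FBL encodes fibrillarin, the methyltransferase of box C/D ribonucleoproteins, on the minus strand. Its window held 0 BMH-21 Pol I peaks against 1 DMSO Pol I peak, and 1 BMH-21 Pol II peak against 0 DMSO Pol II peaks. The DMSO Pol I peak had the highest score of the 15 in the windows, 739.15, which ranked 55th in its list. It lay at the end of the gene, on chromosome 19 at 40323786 to 40325062, where the start of the neighbour DYRK1B, on the same strand, faces FBL. From this peak to the next listed one, 119 kb farther on and past the FBL start, the DMSO Pol I numbering skipped 0 numbers. In this library no Pol I peak was thus numbered at the start of FBL.

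The BMH-21 Pol II peak lay inside FBL, 4.7 to 5.0 kb from the start, at 40333009 to 40333268, and scored 56.84. It was 13595 bp from the nearest DMSO Pol II peak. FBL was the only gene of the 8 without a listed DMSO Pol II peak, and the gap of 124 kb around it skipped 2 numbers. The flanking BMH-21 Pol I peaks were 361 kb apart with 2 numbers skipped, the shortest such stretch among the 8 genes.

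NOP56 encodes a core protein of the box C/D ribonucleoproteins, hosts 5 snoRNAs and lies on the plus strand. Its window held 0 BMH-21 Pol I peaks against 1 DMSO Pol I peak, and 0 BMH-21 Pol II peaks against 3 DMSO Pol II peaks. The DMSO Pol I peak spanned the start, on chromosome 20 at 2632567 to 2633848, and with 1282 bp was the widest Pol I peak of the set. Its score of 365.45 exceeded 96.5% of the list. The DMSO Pol II peaks were upstream at 2626879 to 2629470 (score 636.93, above 99.6% of the list) and 2629499 to 2630249 (score 119.88), and at the end of the gene, toward IDH3B, at 2640246 to 2640752 (score 95.89). Pol II was thus listed on both sides of NOP56 and not over it.

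The gap between these DMSO Pol II peaks was 10.0 kb long, held the whole gene span and skipped 3 numbers. The 3 DMSO Pol II peaks so numbered lay in that gap and are not listed. The BMH-21 Pol II list had no peak in the window, and its flanking peaks were 393 kb apart with 5 numbers skipped. The nearer of these ended 1813 bp before the widest DMSO Pol II peak.

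Over the 8 windows, the BMH-21 lists held fewer peaks than the DMSO lists for both antibodies, as they did over the genome. The BMH-21 list gave 0 and the DMSO list 15 of the listed Pol I peaks of the windows, and a count of 0 of 15 allows a BMH-21 share of up to 20.0% by the limit of 3 counts and up to 21.8% by the exact interval. Over all listed Pol I peaks the BMH-21 share was 4.34%. For Pol II, 3 of 22 listed peaks came from BMH-21 (13.6%, interval 2.91 to 34.9) and 19 from DMSO, against a BMH-21 share of 28.6% over all listed Pol II peaks. Both shares of the whole lists were within what the window counts allow, so a departure of these genes from the genome was not detectable at this number of peaks.

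Skipped numbers set a wide limit on what the BMH-21 lists can show here. Between the listed peaks that flank the windows, 117 numbers were skipped in the BMH-21 Pol I list and 6 in the DMSO Pol I list, and 126 in the BMH-21 Pol II list against 32 in the DMSO Pol II list. For Pol I the stretches were longer in the BMH-21 list at each of the 8 genes, reaching 9.39 Mb around NPM1, against at most 0.358 Mb in the DMSO list. For Pol II the longest were 1.06 Mb in the BMH-21 list and 0.974 Mb in the DMSO list, and at NPM1 the BMH-21 stretch was the shorter, at 786 kb against 974 kb. How many of the skipped BMH-21 numbers fell in the windows cannot be read from the list. In the DMSO Pol II list, skipped numbers could be placed in gaps of at most 10.0 kb beside POLR1B and at UBTF, NCL and NOP56, as given above. In the DMSO Pol I list, 1 skipped number could be placed in a gap of 6.03 kb at the end of RRN3.

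**Figure D3:**
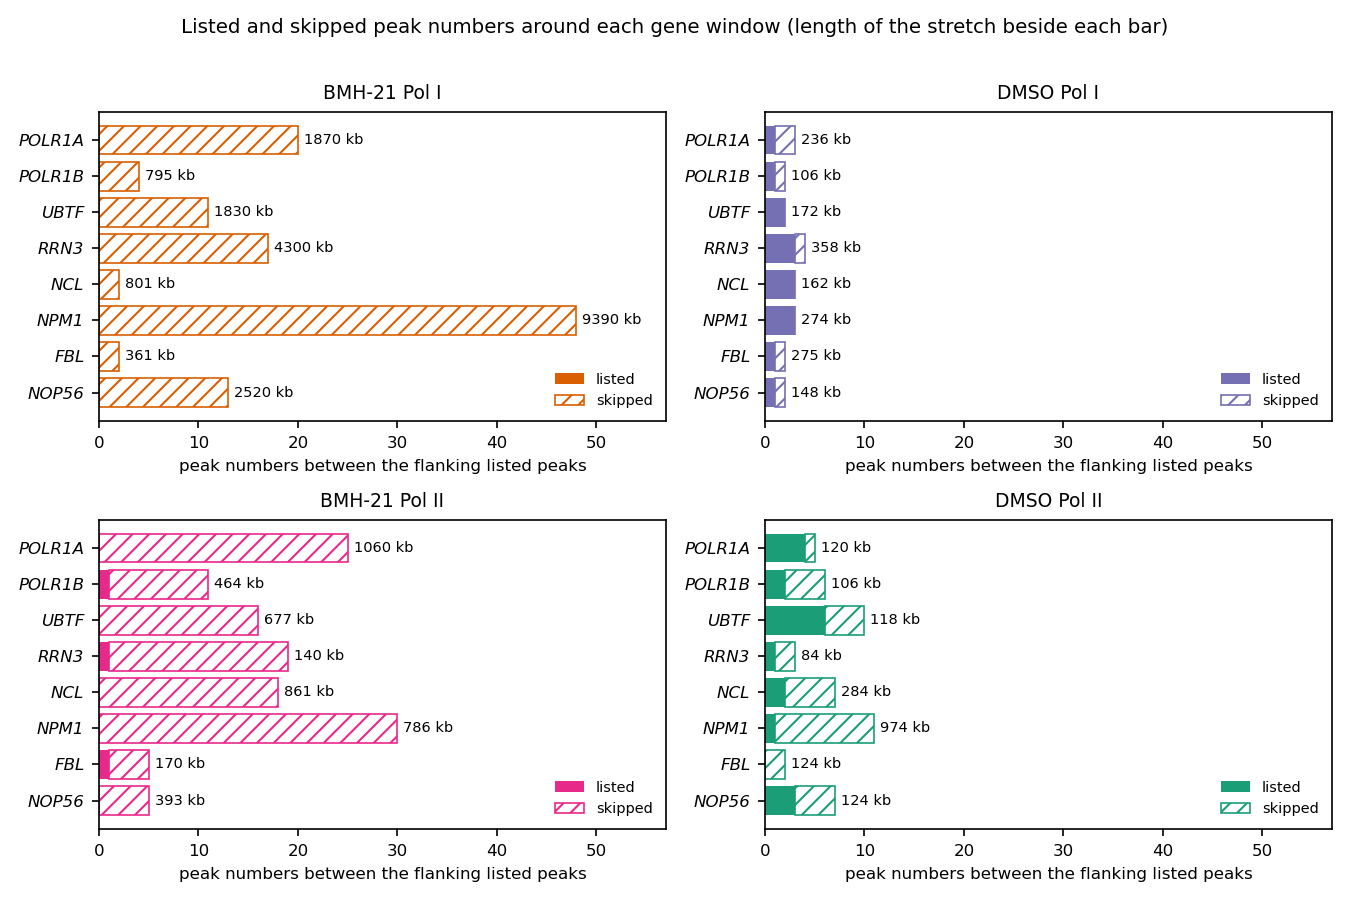
Running peak numbers between the listed peaks that flank each gene window, listed (solid) and skipped (hatched), with the length of the stretch in kb beside each bar. The BMH-21 Pol I bars hold skipped numbers only, up to 48 over 9390 kb at NPM1, while the DMSO Pol I bars hold at most 2 skipped numbers.

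In these windows, overlap between the antibodies in DMSO cells had intervals that hold the share of the whole lists. Among the 15 DMSO Pol I peaks, 2 shared bases with a DMSO Pol II peak (13.3%, interval 1.66 to 40.5), against 14.0% of the list. Among the 19 DMSO Pol II peaks, 2 shared bases with a DMSO Pol I peak (10.5%, interval 1.30 to 33.1), against 20.5% of the list. These were the pair inside POLR1A and the pair beyond the end of RRN3, and none of the 8 Pol I peaks at gene starts was overlapped by a listed Pol II peak. The distance from those 8 peaks to the nearest listed DMSO Pol II peak ran from 1195 bp at NCL to 35022 bp at POLR1B. In the BMH-21 libraries, 0 of 3 Pol II peaks were overlapped by a Pol I peak, against 1.61% of that list, and their nearest BMH-21 Pol I peaks were 37.9 to 905 kb away.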

How the data were processed

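Each of 4 ChIP libraries had a peak list, and groups were taken from the sample titles. The deposited lists give chromosome, start, end, numbered peak name and a score. The file headers call the score a p-value, but its values start at 50 and its scale is not stated, so the authors' score is used only within a list, apart from counts of peaks scored 100 or more. The submitters' processing notes name deepTools 3.5.4, Bowtie2 2.2.1, CASAVA 1.8.2 and the build hg19. Peak names begin with MACS. Its settings and how inputs and duplicate reads were handled are not given here.

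Starts were converted to 1-based positions. A peak belonged to a window when it shared 1 bp or more with it. Strand, neighbouring genes and promoters came from RefSeq tables on GRCh38, used without their positions except beside sequences. Overlap and skipped-number counts were tested on simulated data. The members and rules were chosen with earlier results of these data known. All 8 genes are described, with every listed peak of their windows except those given by range. No test between treatments was made, as each group had 1 library. Python 3.11.15, NumPy 2.4.6, pandas 2.3.3, SciPy 1.17.1 and matplotlib 3.10.9 were used.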

Additional observations from a re-analysis of the deposited data

How the results depend on the processing

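Other settings gave 54 values for 16 results. Counts and lengths that moved by no more than 1.5 times, and shares inside the original interval, made up 40 of them, and 14 moved farther. The BMH-21 Pol I count was 0 under each alternative, but only the setting with 10 kb added could have raised it. The other settings narrow an empty set, so their unmoved values among the 40 were fixed in advance. With gene spans alone (0 kb added), BMH-21 Pol II peaks covered 0.502 kb against 0.912 kb in the windows, and DMSO Pol II peaks numbered 8 and covered 5.23 kb against 19 and 12.4 kb. With 10 kb added, BMH-21 Pol II peaks numbered 6 and covered 1.74 kb. At a score of 100 or more, 8 DMSO Pol I, 1 BMH-21 Pol II and 9 DMSO Pol II peaks were left, the BMH-21 Pol II peak covering 0.41 kb. At a width of 300 bp or more, 1 BMH-21 Pol II peak was left, also covering 0.41 kb. Alternatives for starts and ends were chosen after the data were seen. Within 500 bp, 3 genes had a DMSO Pol I peak and 0 a DMSO Pol II peak at the start, and within 2000 bp 2 genes had a DMSO Pol I peak at the end. The fewer peaks follow from the narrower setting by construction. The share of BMH-21 Pol I peaks overlapped by Pol II has no value, as the windows held none. No paired analysis was possible because each group had 1 library. Widths, scores and positions of skipped peaks are not given, which limits every absence from a list.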
